A study of Mus musculus with 11 samples.

Results

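Wild-type mouse embryonic fibroblasts (MEFs) gave 26602 SA1 peaks and 7741 SA2 peaks in chromatin immunoprecipitation followed by sequencing (ChIP-seq), and these 2 lists are compared here. The members were every interval of both lists, 34343 of the 163094 intervals in the 10 lists of the series. MEFs are primary cells grown from embryos, here of embryonic day 12.5 and of mixed C57BL/6 x 129 Sv background, and they were untreated. Antibodies against SA1 and against SA2 were each used on 1 wild-type sample, and both lists were called against 1 input library, which was pooled from wild-type and SA1-null cells. SMC1 and SMC3 of wild-type cells and SA1 and SA2 of SA1-null cells, which come from the same kind of MEFs, serve beside them where named. The SA1-null SA2 list was called against that input too, and the SMC1, SMC3 and SA1-null SA1 lists against a second input pool. The labels do not say how many embryos or cultures stand behind a sample.

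Cohesin entraps DNA, keeps replicated chromosomes joined until mitosis and extrudes loops of chromatin in interphase. SMC1, SMC3 and a kleisin close into a ring, and the kleisin binds a further subunit, which is SA1 (STAG1) or SA2 (STAG2). A given ring of somatic vertebrate cells therefore carries SA1 or SA2 and not both, and a peak of both proteins in a cell population stands for different rings, alleles or cells. In many cell types much of cohesin lies at sites of the DNA-binding protein CTCF, where it is held during loop formation.

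No list gives a height, score or p-value, and the sequencing depth is unknown here, so each peak is described by its position and width. With 1 sample for each antibody, no difference between SA1 and SA2 could be set against replicate error and no test was made. Intervals in brackets are 95% intervals that cover the counting of peaks only. Overlap was counted with the intervals of both inputs and with SA1 peaks of SA1-null cells, where the SA1 antibody has no target. Of the SA1 peaks 62 (0.233%), and of the SA2 peaks 44 (0.568%), overlapped such an interval. These lists are short (436, 417 and 177 intervals) and the peaks were called against input, so the low overlap does not measure the share of false peaks. The SA1-null SA1 list does not bear on the SA2 antibody. An SA2-null control was not analysed here.

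SA1 peaks outnumbered SA2 peaks by 3.44 to 1 (exact binomial interval 3.35 to 3.53). They were also wider, with a median of 534 bp for SA1 and 463 bp for SA2, and the middle 80% of widths ran from 361 to 715 bp for SA1 and from 339 to 639 bp for SA2. Peaks over 1000 bp numbered 283 for SA1 and 2 for SA2. The SA1 list covered 14.4 Mb, or 0.562% of the 2569 Mb between the first and last intervals of each chromosome, and the SA2 list covered 3.69 Mb, or 0.144%. A longer list with wider peaks can come from deeper sequencing or better enrichment as well as from more binding, and these cannot be told apart with these files.

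SA1 and SA2 peaks met in a nearly exclusive, pairwise manner. An overlap of at least 1 bp was present for 5353 SA1 peaks (20.1%, Wilson interval 19.6 to 20.6%) and for 5351 SA2 peaks (69.1%, interval 68.1 to 70.1%). With nearly all overlaps between single peaks, the contrast between these shares follows from the unequal list lengths. With only the 7741 widest SA1 peaks both shares were 33.0%, an equality that equal lengths fix in advance. This cut by width left 2558 SA2 peaks with a partner. Of the 5359 overlapping pairs, 5331 (99.5%) joined 1 SA1 peak to 1 SA2 peak. Only 6 SA1 peaks touched 2 SA2 peaks and only 8 SA2 peaks touched 2 SA1 peaks, and no peak of either list had more than 2 partners. In bases, the overlap was 2.41 Mb, which is 16.7% of the SA1 bases and 65.2% of the SA2 bases.

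Midpoint distances to the other protein fell off steeply beyond 200 bp. Midpoints lay within 200 bp for 5229 SA1 peaks (19.7%) and for the same number of SA2 peaks (67.5%). The range from 200 to 1000 bp held 272 SA1 peaks (1.02%) and 154 SA2 peaks (1.99%). The nearest SA2 midpoint was over 100 kb away for 9231 SA1 peaks (34.7%), and the nearest SA1 midpoint was that far for 533 SA2 peaks (6.89%). Counts were lowest at 300 to 500 bp, with 31 SA1 and 28 SA2 peaks, and were 153 and 37 at 500 to 1000 bp. The wider range from 1000 to 2000 bp held 313 SA1 and 55 SA2 peaks, so no break was seen at 1 kb.

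At shared positions the midpoints of the 2 proteins lay close together. Among the 5331 single pairs, the SA1 midpoint minus the SA2 midpoint had a median of 0.5 bp, with the central 90% between -134 and 138 bp. The sign was even, with SA1 at the higher coordinate in 2675 pairs, at the lower in 2643 and level in 13. Positions were not oriented by a motif or gene, so a shift that follows orientation would cancel in these signed values. Without regard to sign the median offset was 55.5 bp, and 4130 pairs (77.5%) lay within 100 bp and 97.8% within 200 bp. The widths of these pairs would have allowed an overlap at offsets of up to 550 bp in the median. On single autosomes the median unsigned offset ran from 48.5 bp on chromosome 8 to 60.5 bp on chromosome 2.

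Along the chromosome coordinate, the larger width of SA1 peaks was spread evenly over both sides in the median. Sides were not oriented here either. In single pairs the median width was 611 bp for SA1 and 490 bp for SA2, and SA1 was the wider in 4024 pairs (75.5%, interval 74.3 to 76.6%). SA1 peaks began a median of 49 bp before the SA2 start and ended a median of 53 bp after the SA2 end. The SA2 peak lay wholly inside the SA1 peak in 2499 pairs (46.9%), and the SA1 peak lay wholly inside the SA2 peak in 551 other pairs (10.3%). Widths of paired SA1 and SA2 peaks were only weakly related (Pearson r = 0.15 on the log2 scale, Spearman rho = 0.15, over 5331 pairs that share an input library and a genome sequence).

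The offset between SA1 and SA2 was close to that between SA2 of 2 genotypes, and it was the largest of the comparisons among wild-type lists. At 4024 positions with single partners in all 4 wild-type lists, the median unsigned offset was 55.5 bp for SA1 against SA2. It was 45 bp for SA1 against SMC1 and 43 bp for SA1 against SMC3, and 52 and 51 bp for SA2 against SMC1 and SMC3. The ring subunits SMC1 and SMC3 were 38.5 bp apart. A subset of 2388 of these positions also had a single SA2 peak in SA1-null cells. There the offset was 54.5 bp between the wild-type SA1 and SA2 peaks, and 54.8 bp between the wild-type SA2 peak and that of SA1-null cells, which is 1 antibody in 2 genotypes. The signed medians of all these comparisons, again along the unoriented coordinate, lay between -3.5 and 1 bp. SA2 peaks were the narrowest of the 4 lists at the 4024 positions, with a median width of 500 bp, and SA1, SMC1 and SMC3 had medians of 627, 648 and 599 bp.

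**Figure D1:**
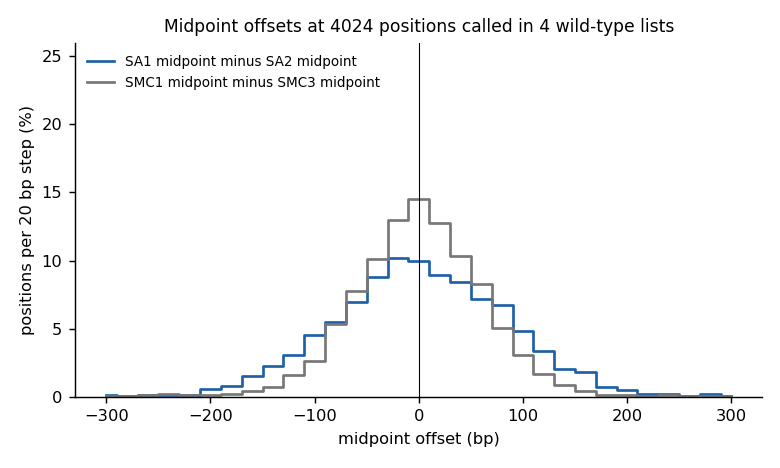
The plot shows the midpoint offset in bp (horizontal) and the percentage of the 4024 positions in each 20 bp step (vertical). The blue line is SA1 minus SA2 and the grey line is SMC1 minus SMC3. Both centre on 0, with median unsigned offsets of 55.5 bp and 38.5 bp.

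Wide SA1 peaks had an SA2 partner more often than narrow ones. In 10 classes of equal size by width, the share of SA1 peaks with SA2 went up at each step, with 6.69% (interval 5.80 to 7.70%) in the narrowest class, up to 361 bp, and 37.99% (interval 36.2 to 39.9%) in the widest, from 715 bp. The share of SA1 peaks with SMC1 went up alongside, from 39.3% in the narrowest class to 86.0% in the widest.

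SA2 peaks did not follow this order at the narrow end. An SA1 partner was present for 68.5% (interval 65.2 to 71.7%) of the 775 narrowest SA2 peaks, up to 339 bp. The share was 51.3% and 50.8% in the following 2 classes and then went up to 91.6% (interval 89.4 to 93.4%) in the widest. SMC1, whose list was called from another library against another input, dipped in the same way over the SA2 classes, with 60.6% in the narrowest, 44.1% in the next and 87.6% in the widest. The SA1 partners of the narrowest SA2 peaks were not narrow themselves, with a median of 578 bp, against 646 bp for the partners of the widest SA2 peaks. Depth and peak height are unknown here, and their part in these shares was not tested.

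**Figure D2:**
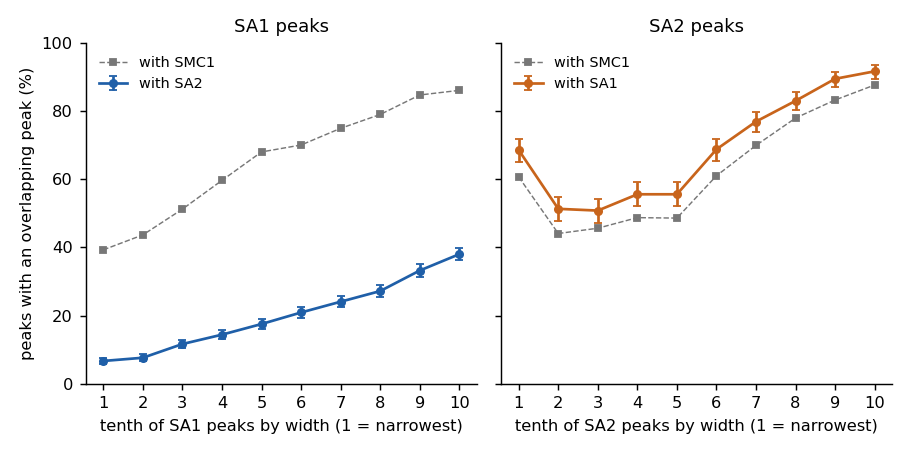
The left panel shows SA1 peaks and the right panel SA2 peaks, in 10 classes of equal size by width (horizontal, 1 is the narrowest), with the percentage that overlap a peak of the other list or of SMC1 (vertical; bars are 95% Wilson intervals). The SA1 share climbs from 6.69 to 37.99%, whereas the SA2 share starts at 68.5%, dips to 50.8% and ends at 91.6%.

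Peaks without a partner differed in their company of ring subunits. A wild-type SMC1 or SMC3 peak was present at 61.4% of the 21249 SA1 peaks without SA2 (interval 60.8 to 62.1%) and at 3.77% of the 2390 SA2 peaks without SA1 (interval 3.07 to 4.61%). Where the proteins overlapped, the share was 90.2% for both SA1 and SA2 peaks. An SA2 peak of SA1-null cells, from the same antibody and input, was present at 41 of the 2390 SA2 peaks without SA1 (1.72%). For SA2 peaks with SA1 this share was 53.1%. Among SA1 peaks it was 13.7% (2909 of 21249) for those without wild-type SA2 and 53.2% for those with it. Whether SA2 peaks without SA1 are binding sites was not tested. Taking only the peaks with a ring subunit left 17883 SA1 and 4917 SA2 peaks. Of these SA1 peaks 27.0% had an SA2 peak of the same kind, and of these SA2 peaks 98.2% had an SA1 peak of the same kind. Peaks without a partner were also narrower, with a median of 515 bp for SA1 peaks without SA2 and 430.5 bp for SA2 peaks without SA1, against 611 and 490 bp for SA1 and SA2 peaks with a partner.

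SA1 peaks lay in closer groups than SA2 peaks, and this also held for lists of equal length. On the 19 autosomes the median gap between successive midpoints was 42.1 kb for SA1 and 168.6 kb for SA2, and the mean gaps were 93.1 and 317.3 kb in the same order. A neighbour of the same list within 10 kb was present for 36.5% of SA1 peaks (interval 35.9 to 37.1%) and for 8.72% of SA2 peaks (interval 8.11 to 9.37%). A longer list has closer neighbours whatever its pattern. With the SA1 list shortened to the 7741 widest peaks, the share was 18.0% (interval 17.2 to 18.9%), still above that of the 7741 SA2 peaks. The choice of the widest peaks is itself a selection, and their median gap of 156.2 kb was near that of SA2.

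Gaps set against the mean gap of their own list put both SA1 lists above SA2, except in the share of gaps over 3 means. The coefficient of variation of the gaps, which is 1 for peaks strewn independently at a constant rate, was 2.10 for SA1, 1.78 for the shortened SA1 list and 1.41 for SA2. Gaps shorter than 0.1 of the list's own mean made up 20.0% of SA1 gaps, 18.1% of gaps in the shortened SA1 list and 12.8% of SA2 gaps. Gaps under 0.01 of the mean made up 1.63% for SA1, 4.09% for the shortened SA1 list and 1.49% for SA2. With mean gaps of 93.1 kb for SA1 and 317.3 kb for SA2, this limit is a shorter distance in SA1 and lies nearer to the peak width. Gaps over 3 means were slightly more frequent in SA2, at 6.12% for SA1, 6.17% for the shortened SA1 list and 6.93% for SA2.

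Within the SA2 list, gaps among the peaks with SA1 varied more than gaps among those without. The coefficient was 1.74 for SA2 peaks with SA1 and 1.08 for SA2 peaks without SA1. These 5351 and 2390 peaks were not brought to equal length, and the SA1 coefficient was also lower in the shortened list (1.78) than in the full list (2.10). How much of the contrast follows from list length was not tested. Any SA2 neighbour within 10 kb was present for 524 of 5351 SA2 peaks with SA1 (9.79%, interval 9.02 to 10.6%) and for 151 of 2390 SA2 peaks without SA1 (6.32%, interval 5.41 to 7.37%). SA2 peaks without SA1 thus made up 22.4% of the 675 SA2 peaks with a near neighbour, a smaller share than in the whole list (2390 of 7741).

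**Figure D3:**
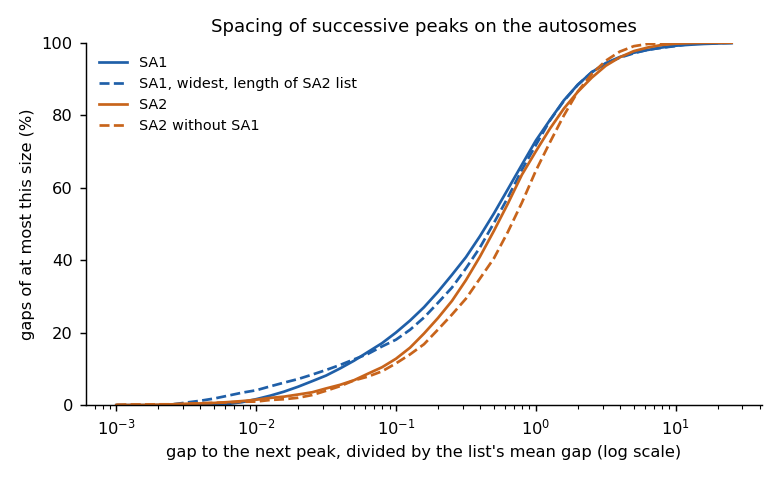
The plot shows gaps between successive peaks on 19 autosomes, each divided by the mean gap of its list (horizontal, log scale), against the cumulative percentage of gaps (vertical). SA1 (blue; dashed for the widest peaks at the length of the SA2 list) holds more gaps below 0.1 of the mean (20.0%) than SA2 (orange; 12.8%) and SA2 without SA1 (orange, dashed; 11.5%). Below 0.01 of the mean the curves cross.

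Among gaps under 10 kb, SA1 gaps were most frequent between 500 and 2000 bp. Of all SA1 gaps, 497 were between 500 and 1000 bp, 475 between 1000 and 1500 bp and 472 between 1500 and 2000 bp, and the number per 500 bp step was down to 200 just below 10 kb. SA2 gave 25, 14 and 21 gaps in the same 3 steps. Joining SA1 peaks whose midpoints were at most 10 kb apart gave 4167 groups of at least 2 peaks, which held 9712 SA1 peaks (36.5%), and 998 groups of at least 3. The same linking gave 326 SA2 groups of at least 2 peaks, which held 675 SA2 peaks, and 19 groups of at least 3.

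SA2 was not more frequent in SA1 groups than at solitary SA1 peaks. A partner was present for 20.4% (interval 19.8 to 21.0%) of the 16890 solitary SA1 peaks and for 20.9% (interval 19.9 to 21.9%) of those in groups of 2. The share was 18.4% in groups of 3, 17.2% in groups of 4 and 12.9% (interval 10.01 to 16.4%) in groups of 5 or more, although median SA1 width was 529 bp for solitary peaks and 573 bp in the groups of 5 or more. In the shortened SA1 list the shares were 34.2% for solitary peaks, 29.4% in groups of 2 and 23.2% in groups of 3.

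In SA1 peaks that lay close together, SA2 at one had little relation to SA2 at the other. Within 2 kb there were 1465 successive SA1 pairs, of which 40 had SA2 at both peaks, 396 at a single peak and 1029 at neither. Seen from an SA1 peak with SA2, the near neighbour had SA2 in 16.8% of cases, and seen from an SA1 peak without SA2 it had SA2 in 16.1%. At gaps of 50 to 200 kb the shares were 22.9% and 21.1% in the same order. Where a single peak of the close pair had SA2, this was the wider SA1 peak in 285 of 396 pairs (72.0%), with a median SA1 width of 640.5 bp for the peaks with SA2 and 510 bp for those without. At gaps of 50 to 200 kb the wider SA1 peak had the SA2 in 68.2% of such pairs.

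Of the 5 largest SA1 groups, 3 held no wild-type SA2 peak. The largest held 9 SA1 peaks on chromosome 3 between 52040349 and 52074422 (mm9, as are all coordinates here), with 1 SA2, 5 SMC1 and 3 SMC3 peaks. A group of 8 SA1 peaks with no SA2 and 3 SMC1 peaks lay on chromosome 18 between 55144266 and 55152854. The group between 23982193 and 23991860 of chromosome 16 had 8 SA1, no SA2 and 4 SMC1 peaks. That between 58104976 and 58117893 of chromosome 5 had 8 SA1, no SA2 and 2 SMC1 peaks. The SA2 list of SA1-null cells had 2 peaks in the group on chromosome 3, 2 in that on chromosome 16, 1 in that on chromosome 5 and 0 in that on chromosome 18. Genes could not be named, since the gene table at hand is of another build than the lists.

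The remaining group of 8 SA1 peaks, on chromosome 9 from 100842920 to 100856961, coincided with the largest SA2 group, of 7 peaks between 100845069 and 100857007. All 7 SA2 peaks there were paired with an SA1 peak, and this was the longest autosomal run of successive SA1 peaks with SA2. No SMC1 or SMC3 peak of wild-type cells lay in this stretch, whereas SA1-null cells had 5 SA1 peaks and 3 SA2 peaks in it. Neither input list had an interval there. SA1 peaks at this position were thus also called in the library labelled SA1-null. Whether the position lies in or beside the gene disrupted in those cells could not be looked up without an annotation of this build. SA1 and SA2 peaks that overlapped these 5 SA1-null peaks were among those left out in an alternative analysis.

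Of the 18 SA2 groups of 3 peaks, the 4 with the shortest span are named here. That on chromosome 6, between 114876784 and 114879893, had 3 SA1, 3 SMC1 and 2 SMC3 peaks beside its 3 SA2 peaks. On chromosome 13 the group spanned 42395940 to 42399482, again with 3 SA1 peaks, and with 4 SMC1 and 2 SMC3 peaks. The groups at 29382017 to 29387364 of chromosome 7 and at 34109891 to 34115291 of chromosome 16 had 2 SA1 peaks each, and all of these SA1 peaks had an SA2 partner. Outside chromosome 9, no SA2 group of the genome was larger than 3.

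Over the autosomes SA1 and SA2 were unevenly spread to a like degree. In 2384 windows of 1 Mb the median was 10 SA1 peaks and 3 SA2 peaks, with at most 43 SA1 and 19 SA2 peaks. The variance in excess of the mean, divided by the squared mean, which is 0 for independently strewn peaks and does not depend on list length, was 0.373 for SA1 and 0.350 for SA2. For SA2 peaks with SA1 it was 0.600, and for SA2 peaks without SA1 it was 0.142. The order of SA2 with and without SA1 was the same in windows of 0.5 Mb (0.661 and 0.174) and of 5 Mb (0.337 and 0.0723). The windows with the most SA1 peaks were 80 to 81 Mb of chromosome 10, with 43 SA1 and 8 SA2 peaks, 35 to 36 Mb of chromosome 17, with 40 SA1 and 14 SA2 peaks, and 117 to 118 Mb of chromosome 2, with 38 SA1 and 4 SA2 peaks. Those with the most SA2 peaks were 32 to 33 Mb of chromosome 2, with 31 SA1 and 19 SA2 peaks, 100 to 101 Mb of chromosome 9, with 29 SA1 and 16 SA2 peaks, and 17 to 18 Mb of chromosome 7, with 25 SA1 and 14 SA2 peaks. In all, 6 windows had 14 SA2 peaks, and that on chromosome 7 was taken by chromosome order. The window on chromosome 9 includes the group of 7 described above, without which it had 9 SA2 peaks and would not be among these.

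SA2 peaks with SA1 rose steeply with the number of SA1 peaks per window, and SA2 peaks without SA1 rose less. The windows were ordered by SA1 peak number into 5 classes. In the class with the fewest SA1 peaks (0 to 4), SA2 peaks with SA1 averaged 0.178 and SA2 peaks without SA1 averaged 0.667 per window. In the class with the most SA1 peaks (17 to 43), the means were 4.86 and 1.11. A window with more SA1 peaks offers more partners, so part of the first increase is built into the classes. The share of SA1 peaks with SA2, which does not count more partners as more, was 12.4% (interval 10.1 to 15.1%) in the poorest class and 22.4% (interval 21.6 to 23.2%) in the richest class. The share of SA2 peaks with SA1 was 21.1% and 81.4% in the same order, and part of this increase is again built into the classes. In the poorest class, 62 SA2 peaks lay in windows with no SA1 peak to overlap. Across the windows, Spearman's rho was 0.73 between SA1 and all SA2 peaks and 0.16 between SA1 and SA2 peaks without SA1, as a description of windows that share mappable length. SA2 peaks without SA1 averaged only 0.952 per window with a variance of 1.08, so scatter from counting limits the second rho. In windows of 0.5 and 5 Mb, rho was 0.65 and 0.86 for all SA2 peaks, and 0.12 and 0.21 for SA2 peaks without SA1.

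**Figure D4:**
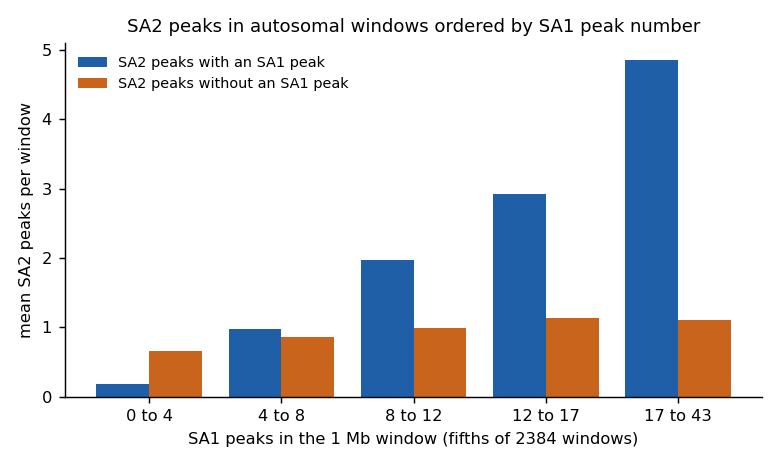
Autosomal windows of 1 Mb are ordered by their number of SA1 peaks into 5 classes of nearly equal size (horizontal; ties at a boundary are split by position), and bars give the mean number of SA2 peaks per window (vertical). SA2 peaks with SA1 (blue) go from 0.178 to 4.86 across the classes and SA2 peaks without SA1 (orange) from 0.667 to 1.11.

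Regions empty of SA1 peaks still held called SA2 peaks. Between successive autosomal SA1 peaks there were 197 gaps of at least 1 Mb, 333.3 Mb in all, the longest of 7.80 Mb. They held 213 SA2 peaks, 0.639 per Mb, against 0.953 SA2 peaks without SA1 per Mb over all autosomes. A wild-type SMC1 peak was present at 17 of the 213, against 89 of all 2390 SA2 peaks without SA1 (3.72%, chromosome X included). Of the 1 Mb windows, 47 had SA2 and no SA1 peak, 224 had SA1 and no SA2 peak, and 90 had neither. In the other direction, the longest autosomal run of successive SA1 peaks without SA2 was 43 peaks on chromosome 13, from 3896066 to 6469124.

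The ratio of SA1 to SA2 peaks varied little between autosomes. It was above 3 on all 19 and ran from 3.10 on chromosome 19 to 3.91 on chromosome 3, a span of 1.26 times, with a mean of 3.43 ± 0.218 (SD over 19 autosomes, which are not replicates). The ratio over all autosomes, 3.43, lay within the exact binomial interval of 18 of them, the exception being chromosome 3 (interval 3.49 to 4.38). The density of SA1 peaks ran from 8.86 per Mb on chromosome 12 to 14.4 per Mb on chromosome 11, and that of SA2 peaks from 2.44 per Mb on chromosome 3 to 4.36 per Mb on chromosome 11. The densities went together over the 19 autosomes (Pearson r = 0.94, Spearman rho = 0.92, as a description).

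Overlap was highest where both lists were dense. The share of SA1 peaks with SA2 ran from 17.2% on chromosome 13 to 24.2% on chromosome 19, and the share of SA2 peaks with SA1 from 64.7% on chromosome 12 to 78.0% on chromosome 11. Chromosomes 11 and 19 were also the densest in SA1, with 14.4 and 13.0 peaks per Mb. SA2 peaks with SA1 varied from 1.66 per Mb on chromosome 12 to 3.40 on chromosome 11, a span of 2.05 times, and SA2 peaks without SA1 from 0.767 on chromosome 3 to 1.15 on chromosome 8, a span of 1.504 times. Chromosome X stood below every autosome in density, with 4.72 SA1 and 1.24 SA2 peaks per Mb, and its ratio of 3.81 lay inside the range of the autosomes. Its overlap was also below that of every autosome, with SA2 at 13.6% of SA1 peaks and SA1 at 51.7% of SA2 peaks.

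**Figure D5:**
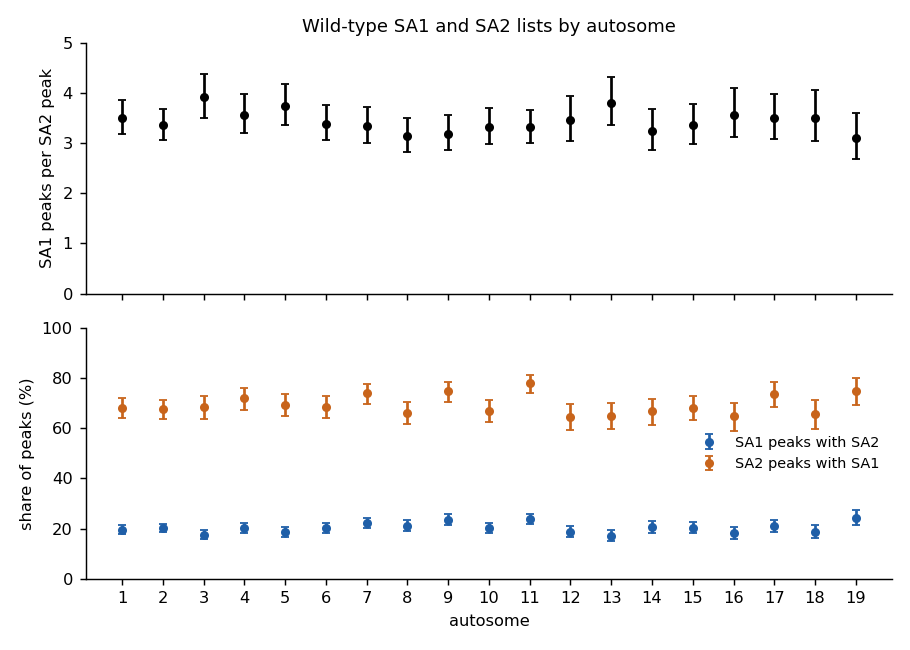
The upper panel shows the number of SA1 peaks per SA2 peak on each autosome (points, with exact 95% binomial intervals), which lies between 3.10 and 3.91. The lower panel shows the percentage of SA1 peaks with SA2 (blue) and of SA2 peaks with SA1 (orange), with 95% Wilson intervals, at 17.2 to 24.2% and 64.7 to 78.0%.

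Both lists grew denser along the autosomes. With each autosome cut into 5 parts of equal length in the order of its coordinates, SA1 gave 9.44, 9.65, 10.5, 11.2 and 12.8 peaks per Mb and SA2 gave 2.74, 2.79, 3.11, 3.37 and 3.65. Mouse autosomes have their centromere near the low end of the coordinates, so the densest part lay farthest from it. The ratio of SA1 to SA2 peaks stayed between 3.33 and 3.52 along the 5 parts. The share of SA1 peaks with SA2 was 19.04% (interval 17.9 to 20.2%) in the first part and 21.5% (interval 20.5 to 22.5%) in the last, and the share of SA2 peaks with SA1 was 65.7% (interval 63.1 to 68.2%) and 75.4% (interval 73.4 to 77.4%).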

How the data were processed

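ChIP-seq of SA1 and SA2 in wild-type MEFs was deposited as 1 interval list for each antibody. The deposited lists hold 3 columns, chromosome, start and end, and no score, ratio or other value for a peak. Per the submitters' processing notes, CASAVA 1.7 and the mouse build mm9 were used. FDR10 in the deposited names was taken as a false discovery rate of 10%, without a fold limit. The aligner and caller were not given in the sources used. Printed starts are 1-based, 1 above the deposited ones.

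Overlaps (at least 1 bp), offsets, gaps and groups were computed from midpoints and edges with Python 3.11.15, numpy 2.4.6, pandas 2.3.3 and scipy 1.17.1, tested on simulated data and checked against bedtools 2.31.1. Coefficients of variation, gap medians and means, scaled gaps and windows used autosomes only; neighbour shares, groups, successive pairs and counts of short gaps used chromosome X too. Windows that reach beyond the first or last interval of any list were left out. Positions were named as the 5 largest groups of each list (ties by shorter span) and the 3 fullest windows by each list (ties by chromosome order); the longest run without SA2 was named after the values were seen. Alternatives were other overlap, merging, background, width and chromosome settings. Members and measures were chosen with earlier results of these data known. No sequence is printed, since no genome of this build was used here.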

Additional observations from a re-analysis of the deposited data

How the results depend on the processing

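Of 49 recomputed values, 22 stayed within the counting interval or equal to 3 digits. None reversed the order of SA1 and SA2 where both were recomputed, although both partner shares were 33.0% for lists of equal length. These counts do not measure stability, since some values could hardly move. Halving both lists keeps the ratio of peak numbers, and few peaks lay on input or SA1-null SA1 intervals (0.233% of SA1, 0.568% of SA2). The order of the partner shares follows from list length. An overlap of 50% of the shorter peak, removal of peaks on input or SA1-null SA1 intervals and removal of chromosome X moved none of the values recomputed under them. With peaks closer than 1000 bp merged, the ratio of peak numbers was 3.31, the share of SA1 peaks with SA2 20.8%, the shares with a neighbour of the same list within 10 kb 31.4% (SA1) and 7.75% (SA2), and the coefficient of variation of SA1 gaps 2.05. With only as many of the widest SA1 peaks as there are SA2 peaks, the SA1 neighbour share was 18.0%, the SA1 coefficient 1.78 and the highest over the lowest autosome ratio 1.47; fewer SA1 peaks leave fewer partners. With the widest 50% of each list, these were 18.0% and 61.7% (partners, SA1 and SA2), 23.8% and 5.01% (neighbours), 1.93 and 1.49 (coefficients) and 1.47 (autosomes). With only peaks that have a wild-type SMC1 or SMC3 peak, a setting chosen after the data were seen, the ratio was 3.64, partners 27.0% and 98.2%, neighbours 29.3% and 7.52%, coefficients 2.52 and 1.83, and the autosome ratio 1.28. Leaving out gaps over 3 Mb, also chosen then, gave coefficients of 1.89 (SA1) and 1.29 (SA2). Apart from the effect of shorter lists, the cause of these shifts was not tested. Each antibody has 1 sample and depth is unknown, so a missing partner may not be read as absent binding. Nor may an SA2 peak without SA1 be read as a certain SA2 site.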
